A study of Mus musculus with 24 samples.

Results

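The comparison described here is that of mouse liver from animals labelled Trib1-KO with liver from wild-type (WT) animals, by RNA sequencing of whole tissue. It was formed from the 6 libraries labelled Trib1-KO and the 6 labelled WT, 12 of the 24 libraries of the series, and covered the 19810 of 54432 gene rows whose mean over all 24 libraries was at least 1. Trib1-KO mice carried floxed Trib1 alleles, DKO mice floxed Trib1 and Cebpa alleles, Cebpa-KO mice floxed Cebpa alleles, and WT mice neither. All were male C57BL/6 mice, and all groups, WT included, received an adeno-associated virus (AAV) that encodes Cre recombinase, the enzyme that cuts out a floxed stretch of DNA. Mice were 20 to 21 weeks old at injection, ate chow, and were killed at 4 weeks after it following a 4 h fast. Each group held 6 mice from 2 cohorts of 3. Values of the DKO and Cebpa-KO libraries are given only where named, but these libraries also entered the gene filter and the fit. The labels give neither the promoter that drives Cre nor the cells it reached, so a liver labelled knockout may hold cells that were not recombined.

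TRIB1 is a Tribbles pseudokinase, a protein with a kinase-like fold that acts as an adaptor. It binds the transcription factor C/EBPα at one surface and the ubiquitin ligase COP1 at another, and so marks C/EBPα for breakdown by the proteasome. C/EBPα drives many genes of the mature hepatocyte, among them albumin and enzymes of lipid, glucose and nitrogen metabolism. The liver of the mouse also differs strongly between the sexes, through the pattern of growth hormone pulses, in cytochromes P450, sulfotransferases and major urinary proteins (Mup).

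Values are normalized counts, that is, estimated read counts per gene divided by a factor for each library. Unless stated otherwise, 3 values given for a group are its lowest, median and highest library, with 6 libraries per group. Log2 fold changes are the libraries labelled Trib1-KO minus WT, fitted on log2 of the value plus 1 and followed by ± their standard error. A gene is said to have risen or fallen only where limma gave an adjusted p under 0.05, by the Benjamini-Hochberg method over all 19810 genes. Nothing in the labels says how many RNA preparations stand behind a library, so p-values measure the spread between libraries. For limma that spread was estimated over all 24 libraries. Its standard errors and p-values thus also carry the spread within the DKO and Cebpa-KO groups.

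Trib1, on the plus strand of chromosome 15 (59648350 to 59657099, GRCm38), was higher in the libraries labelled as its knockout. It stood at 3734, 4164 and 4784 normalized counts in the libraries labelled Trib1-KO, against 874, 1249 and 1475 in WT libraries. The groups did not overlap, and every library labelled Trib1-KO lay at more than the highest WT value (log2 fold change 1.81 ± 0.24, limma adjusted p = 3.5e-06). The difference was as large within each of the numbers 1, 2 and 3 that the library names carry, at 1.67, 1.88 and 1.87. The deposited table has 1 value per gene, so reads from the deleted stretch cannot be told apart from the rest. Though higher where the label says knockout, the gene's total therefore checks neither the deletion nor the label. Every direction below rests on the labels. Cebpa, the C/EBPα gene (chromosome 7, 35119293 to 35121928, plus strand), stood at 2295, 2627 and 3163 in the libraries labelled Trib1-KO, against 4264, 6144 and 7412 in WT libraries. Its highest value in the libraries labelled Trib1-KO lay below the lowest in WT (log2 fold change -1.16 ± 0.16, adjusted p = 5.3e-06).

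The 12 libraries held 24087300 to 27190701 normalized counts and 19908 to 21189 genes above 0. The first principal component of the log2 values took 29.9% of their variance and had all 6 libraries labelled Trib1-KO on one side and all 6 WT libraries on the other. WT library B3 stood nearest to the other group on it, and it had the lowest share of Mup genes. That share was 24.5 ± 2.42% (SD, n = 6) in the libraries labelled Trib1-KO, against 7.16 ± 2.26% (SD, n = 6) in WT libraries, with ranges of 21.4 to 27.4% and 2.99 to 8.89%. The difference of 17.4 percentage points gave p = 0.00216 in a 2-sided exact permutation test over 924 arrangements, the smallest p that 6 against 6 libraries allow. Since 1 family took that much of one group's total, each library was also rescaled to its total without Mup genes, called Mup-free scaling below. That total still holds other abundant genes, among them Alb, described below. Mup-free scaling moved the median log2 fold change of all genes by 0.23, to 0.24 in place of 0.01. Differences between 0 and that shift below 0 therefore depend on whether the deposited or the Mup-free scaling is used. Under quantile normalization the median was -0.05, near the deposited one, with 2175 genes called higher and 2413 lower.

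**Figure D1:**
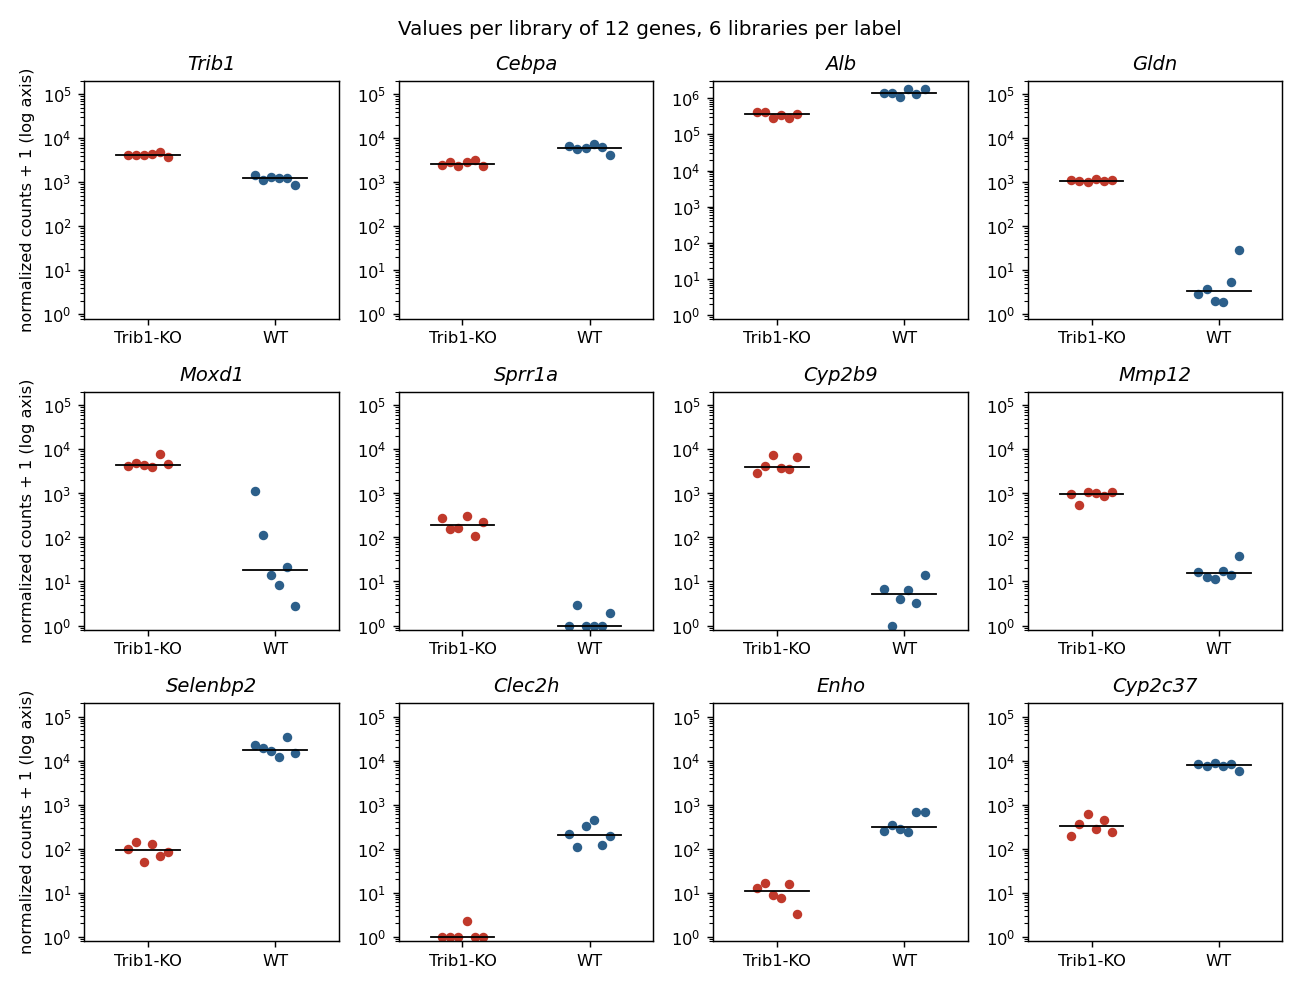
Each point is 1 library and each bar the median of 6, on a log axis of normalized counts plus 1, for 12 genes in the libraries labelled Trib1-KO (left) and WT (right). Trib1 lies higher and Cebpa and Alb lie lower in the libraries labelled Trib1-KO, and the groups overlap in none of the 12 genes.

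Of the 19810 genes tested, 2330 rose and 2168 fell, which is 11.8% and 10.9% of them, or 22.7% together. By Mup-free scaling the split was 5291 higher and 968 lower, and of the 2168 that fell, 966 were still called lower and 0 were called higher. Among genes that changed by at least 2-fold, 1138 rose and 553 fell, 5.74% and 2.79% of those tested. In 2373 genes, 12% of those tested, the 6 values of one group did not overlap with those of the other. Protein-coding genes were called in larger shares than processed pseudogenes. Of 14944 protein-coding genes 13.5% rose and 12.8% fell, against 3.56% and 2.83% of 1096 processed pseudogenes, while 946 long intergenic RNAs lay between, at 9.09% and 6.66%. Of the 4498 called genes, 98.6% differed in the same direction within each of the numbers 1, 2 and 3 of the library names, a share that their choice on the same libraries in large part fixes.

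**Figure D2:**
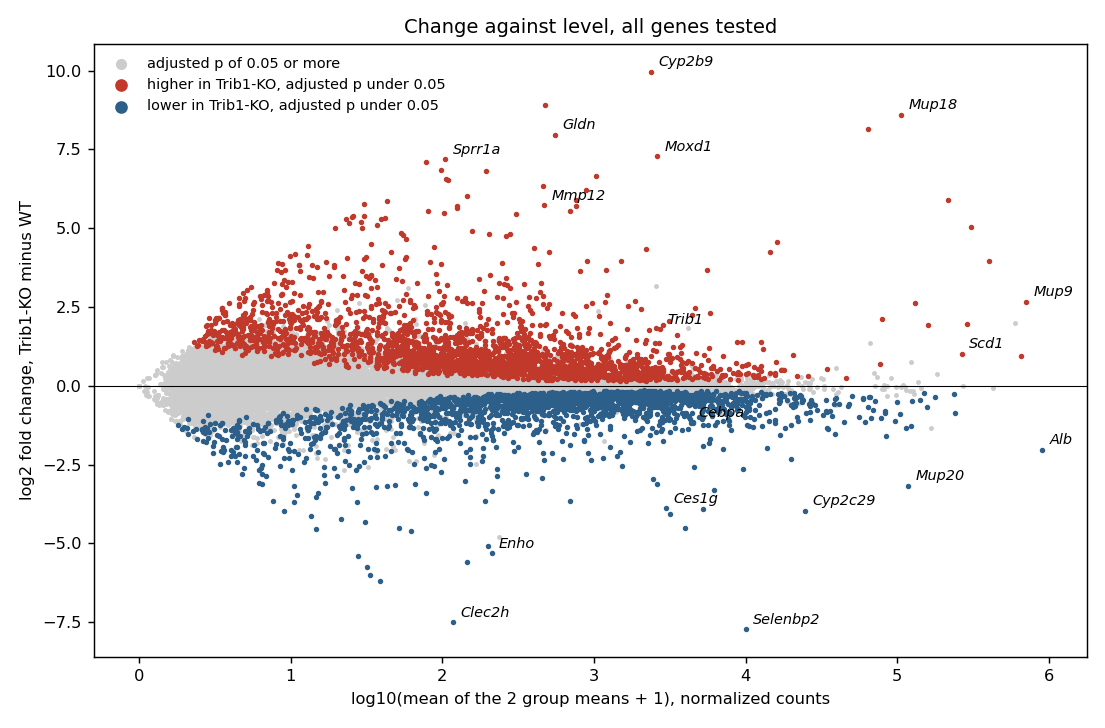
Each point is a gene, with the log10 of the mean of the 2 group means (plus 1) across and the log2 fold change, libraries labelled Trib1-KO minus WT, upward. Called genes are coloured, and the named ones include Cyp2b9 at 9.96, Mup18 at 8.61, Selenbp2 at -7.71 and Alb at -2.02.

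The genes with the largest rises were mostly silent or nearly silent in WT liver. Several encode enzymes that are known to be more abundant in the female mouse liver. Cyp2b9, a cytochrome P450, stood at 2969, 3965 and 7563 in the libraries labelled Trib1-KO, against 0, 4.27 and 13.2 in WT libraries (9.96 ± 0.78, adjusted p = 5.1e-10). Its close relative Cyp2b13 stood at 81.9, 124 and 331 in the libraries labelled Trib1-KO and was listed at 0 in all 6 WT libraries. Sult3a1, a sulfotransferase, stood at 408, 989 and 1428 in the libraries labelled Trib1-KO, against 0, 1.04 and 2.03 in WT libraries. No WT library reached the lowest value of the libraries labelled Trib1-KO for any of these genes. The estrogen sulfotransferase gene Sult1e1 followed the same order, with 236, 334 and 619 in the libraries labelled Trib1-KO, against 0, 2.70 and 8.84 in WT libraries. Members of the Sult2a family, which sulfate steroids and bile acids, varied most among the libraries labelled Trib1-KO: Sult2a1 stood at 46.3, 82.6 and 848, Sult2a2 at 63.6, 129.8 and 608 and Sult2a5 at 44.9, 80.7 and 715. In WT libraries Sult2a5 was listed at 0 throughout, and the highest values of Sult2a1 and Sult2a2 were 0.946 and 1.14. Library C3 was the highest of the libraries labelled Trib1-KO for all 3 genes. Copies in the Cyp2b, Sult2a and Mup families are close in sequence, so the way reads were divided among them is uncertain.

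Outside these families, the largest rises were in genes better known from other tissues. Gldn, which encodes gliomedin, a protein that Schwann cells secrete at the nodes of nerve fibres, stood at 993, 1096 and 1190.4 in the libraries labelled Trib1-KO, against 0.919, 2.40 and 28.1 in WT libraries. The 6 libraries labelled Trib1-KO lay close together, and WT library B3 was the highest of its group (7.97 ± 0.46, adjusted p = 2.1e-12). Sprr1a, a small proline-rich protein of the cornified envelope of skin, stood at 108, 192 and 311 in the libraries labelled Trib1-KO, against 0, 0 and 1.89 in WT libraries (7.20 ± 0.39, adjusted p = 9.2e-13). Moxd1, which encodes a monooxygenase related to dopamine beta-hydroxylase, stood at 4038, 4442 and 7893 in the libraries labelled Trib1-KO. In WT libraries it stood at 1.75, 16.8 and 1116 (7.29 ± 0.96, adjusted p = 2.8e-06). Ly6d, a membrane-anchored protein of the Ly6 family, completed the 14 largest rises together with Mup6, Mup8 and Mup18. It stood at 663, 887 and 1224 in the libraries labelled Trib1-KO, against 2.76, 10.9 and 22.7 in WT libraries (6.35 ± 0.41, adjusted p = 2.3e-11). In all, 23 genes were above 0 in all 6 libraries labelled Trib1-KO and listed at 0 in all 6 WT libraries, and 7 genes had the opposite pattern.

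The largest falls ran from genes abundant in WT liver to genes of low level there. Selenbp2, a selenium-binding protein, stood at 48.4, 89.6 and 142 in the libraries labelled Trib1-KO, against 12089, 17657 and 34316 in WT libraries (-7.71 ± 0.33, adjusted p = 1.2e-14). Clec2h, a C-type lectin-related protein, was listed at 0 in 5 of the 6 libraries labelled Trib1-KO and stood at 1.28 in the other, against 109.9, 201 and 436 in WT libraries. The groups lay far apart for both genes. Enho, which encodes the secreted peptide adropin, stood at 2.27, 9.64 and 15.1 in the libraries labelled Trib1-KO, against 235, 315 and 689 in WT libraries (-5.31 ± 0.31, adjusted p = 3.6e-12). Adgrf1, an adhesion G protein-coupled receptor, stood at 0.963, 6.03 and 10.2 in the libraries labelled Trib1-KO, against 165, 284 and 441 in WT libraries. Ugt2b38, a glucuronosyltransferase, stood at 7.71, 8.31 and 26.3 in the libraries labelled Trib1-KO, against 242, 383 and 600.4 in WT libraries. Library D2 alone lifted the upper end of Ugt2b38, and its value was still below every WT library.

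Cyp2c29, a cytochrome P450 of the Cyp2c cluster on chromosome 19, fell with the smallest standard error of the 14. It stood at 2620.4, 2893 and 3602 in the libraries labelled Trib1-KO, against 40109, 46236 and 52418 in WT libraries (-3.96 ± 0.11, adjusted p = 5.0e-18). Its neighbours in the family, Cyp2c37 and Cyp2c54, stood at 196, 322 and 609 and at 187, 338 and 582 in the libraries labelled Trib1-KO, against 5744, 7821 and 8645 and 4553, 6031 and 7011 in WT libraries. Ces1g, a carboxylesterase, stood at 287, 387 and 521 in the libraries labelled Trib1-KO, against 4996, 5468 and 6364 in WT libraries (-3.88 ± 0.12, adjusted p = 3.9e-17). Cyp4a14, a fatty acid hydroxylase, varied more, with 185, 675 and 1007 in the libraries labelled Trib1-KO, against 2259, 10929.6 and 16347 in WT libraries. These groups did not overlap either. The remaining falls were in genes of lower level. Obp2a, an odorant-binding lipocalin, and Dnaic1, a dynein chain of motile cilia, had highest values of 1.93 and 0.221 in the libraries labelled Trib1-KO, against lowest values of 11.4 and 2.93 in WT libraries. For the trefoil peptide gene Tff3 the highest library labelled Trib1-KO was at 1.46, against 13.8 to 27.6 in 5 WT libraries and 501 in B3. Dsg1c, a desmoglein of cell junctions, stood at 0.964, 4.43 and 5.69 in the libraries labelled Trib1-KO, against 46.5, 126 and 176 in WT libraries.

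In absolute terms 7 of the 8 largest gains were Mup genes, and the largest losses included Alb, Mup20 and other plasma protein and enzyme genes. Mup9 rose the most by this measure, to 1208608 ± 247347 (SD, n = 6) in the libraries labelled Trib1-KO, against 206950.2 ± 86185 (SD, n = 6) in WT libraries. Mup19, Mup15, Mup17, Mup14, Mup18 and Mup16 were the other Mup genes among the 8 largest gains, and Mup19, Mup15, Mup14 and Mup16 each had WT library B3 far below the other 5. The calls of Mup19 and Mup15 had adjusted p of 0.031 and 0.041. Without B3 the adjusted p was 0.089 and 0.12, and without 8 other single libraries for Mup15 (B1, B2 and all 6 libraries labelled Trib1-KO) and 2 for Mup19 (C3 and D2) it was between 0.051 and 0.065. Scd1, the desaturase that makes monounsaturated fatty acids, was the remaining gain. It stood at 219167, 365729.5 and 504322 in the libraries labelled Trib1-KO, against 131129, 168613 and 225167 in WT libraries, and the groups overlapped, since library D2 lay between 2 WT libraries (1.02 ± 0.21, adjusted p = 0.00067). Its call was lost under quantile normalization (0.47, adjusted p = 0.14). Alb, serum albumin, stood at 290593, 361843 and 428238 in the libraries labelled Trib1-KO, against 1080000, 1370000 and 1810000 in WT libraries (-2.02 ± 0.15, adjusted p = 2.1e-10). The Mup family was not uniform: Mup20, which encodes the male pheromone darcin, was at -3.17 ± 0.22 on the log2 scale, with means of 24299.5 ± 8270.0 in the libraries labelled Trib1-KO, against 212406 ± 51101 in WT libraries (SD, n = 6 each). Further losses were in the alcohol-inducible P450 gene Cyp2e1 (-1.26 ± 0.11), the HDL protein gene Apoa1 (-1.32 ± 0.09), the protease inhibitor gene Mug1 (-1.59 ± 0.08), the fibrinogen chain genes Fga (-1.11 ± 0.23) and Fgb (-1.02 ± 0.22) and the urea cycle gene Ass1 (-1.16 ± 0.14). All 6 had non-overlapping groups, with adjusted p of 0.0011 or less.

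The promoters of 6 of these genes are shown, chosen because they hold matches to motifs named below. They are RefSeq windows of 300 bases on GRCm38.p6, from 250 bases before the gene's start to 50 after it, read 5′ to 3′ on the gene's strand. Capitals mark matches to TTGCNNAA (TTNNGCAA on the other strand), a C/EBP-like motif, to GTTAATNAT (ATNATTAAC on the other strand), an HNF1-like motif, and to TGANTCA, an AP-1-like motif that reads alike on both strands. Cyp2b9 and Cyp2b13, which rose, are identical at 298 of 300 positions and hold the same C/EBP-like match, 180 bases before the start. Cyp2c37 and Alb, which fell, each hold a C/EBP-like match 94 bases before it, and Alb also holds an HNF1-like match that begins 32 bases before it. Gldn and Sprr1a, which rose, hold no C/EBP-like match, but 1 and 2 AP-1-like matches. Windows were looked up for 21 genes, the 14 largest changes in each direction as far as they matched and Cebpa and Alb. Of 10 genes that rose, 5 held a match (2 C/EBP-like, 1 HNF1-like and 2 AP-1-like), and of 11 that fell, 4 held one (2, 1 and 2, with Alb counted under both of its motifs).
Cyp2b9 (chr7:26173159-26173458, plus strand, GRCm38.p6): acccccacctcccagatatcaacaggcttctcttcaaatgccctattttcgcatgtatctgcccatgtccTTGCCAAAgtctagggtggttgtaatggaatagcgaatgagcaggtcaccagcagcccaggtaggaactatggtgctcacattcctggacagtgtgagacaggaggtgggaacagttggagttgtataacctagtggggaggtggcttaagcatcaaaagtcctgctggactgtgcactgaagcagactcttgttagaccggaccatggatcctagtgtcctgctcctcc
Cyp2b13 (chr7:26061245-26061544, plus strand, GRCm38.p6): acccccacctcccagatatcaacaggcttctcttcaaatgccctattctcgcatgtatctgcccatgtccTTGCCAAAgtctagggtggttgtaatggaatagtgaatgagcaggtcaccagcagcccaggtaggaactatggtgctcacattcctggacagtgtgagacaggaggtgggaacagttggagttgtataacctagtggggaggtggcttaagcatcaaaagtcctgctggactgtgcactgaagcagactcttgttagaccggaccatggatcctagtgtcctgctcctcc
Cyp2c37 (chr19:39992174-39992473, plus strand, GRCm38.p6): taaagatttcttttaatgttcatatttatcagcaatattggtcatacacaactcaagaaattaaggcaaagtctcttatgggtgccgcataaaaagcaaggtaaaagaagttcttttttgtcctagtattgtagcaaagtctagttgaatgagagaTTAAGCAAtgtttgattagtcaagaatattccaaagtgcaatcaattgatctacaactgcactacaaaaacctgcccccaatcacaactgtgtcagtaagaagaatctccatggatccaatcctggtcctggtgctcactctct
Alb (chr5:90460620-90460919, plus strand, GRCm38.p6): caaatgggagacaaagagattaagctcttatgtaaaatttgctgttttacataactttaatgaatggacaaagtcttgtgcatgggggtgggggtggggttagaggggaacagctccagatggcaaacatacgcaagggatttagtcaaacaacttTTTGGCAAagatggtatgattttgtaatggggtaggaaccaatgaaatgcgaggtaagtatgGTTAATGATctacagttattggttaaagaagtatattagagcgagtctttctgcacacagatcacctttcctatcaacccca
Gldn (chr9:54286236-54286535, plus strand, GRCm38.p6): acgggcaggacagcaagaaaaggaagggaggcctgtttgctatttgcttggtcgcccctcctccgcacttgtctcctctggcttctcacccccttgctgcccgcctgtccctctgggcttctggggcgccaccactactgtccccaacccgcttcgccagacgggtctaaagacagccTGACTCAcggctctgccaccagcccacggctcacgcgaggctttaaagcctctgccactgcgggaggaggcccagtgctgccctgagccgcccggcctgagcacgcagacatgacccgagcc
Sprr1a (chr3:92485832-92486131, minus strand, GRCm38.p6): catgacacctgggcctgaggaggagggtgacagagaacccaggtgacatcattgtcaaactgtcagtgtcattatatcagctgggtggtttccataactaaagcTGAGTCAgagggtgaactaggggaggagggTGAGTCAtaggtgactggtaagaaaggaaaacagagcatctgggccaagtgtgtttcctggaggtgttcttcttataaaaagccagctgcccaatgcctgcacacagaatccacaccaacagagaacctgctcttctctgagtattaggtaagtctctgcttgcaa

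Across all 32851 RefSeq windows, 10.8% held the C/EBP-like letters, 7.81% the AP-1-like letters and 0.801% the HNF1-like letters. Among windows of genes that changed by at least 2-fold, the C/EBP-like share was 13.1% for those that rose and 16.6% for those that fell, against 8.84% for genes that were not called. The AP-1-like share was 11.4% for the genes that rose and 6.31% for those that fell, against 5.48% for genes not called. The HNF1-like share was 0.709% for the genes that rose and 2.76% for those that fell, against 0.486% for genes not called. Letters like those of STAT5 (TTCNNNGAA), HNF4 (CAAAGTCCA) and IRF (GAAANNGAA) motifs were also counted. The STAT5-like share was 7.79% for genes that rose, 10.3% for those that fell and 6.92% for genes not called. In the same order, the HNF4-like shares were 0.304%, 1.18% and 0.528%, and the IRF-like shares 9.41%, 7.69% and 7.61%. A match is a description of letters in this window and not a measured site, and the shares were not tested. Windows were found for 12786 of the genes tested.

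Genes were next read by 36 lists of pathways and cell types, whose 894 tested memberships include genes that stand in more than 1 list. Counts for each list follow, beside the 11.8% of all genes tested that rose and the 10.9% that fell. Among the genes named below as lower, Ighm, Kdr, Tmprss6, Gjb1, Cul4b, Psmc5, Gabarapl1, Lpcat3, Ndufb9, Rnf139, Deptor and Fam91a1 no longer passed by Mup-free scaling.

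**Figure D3:**
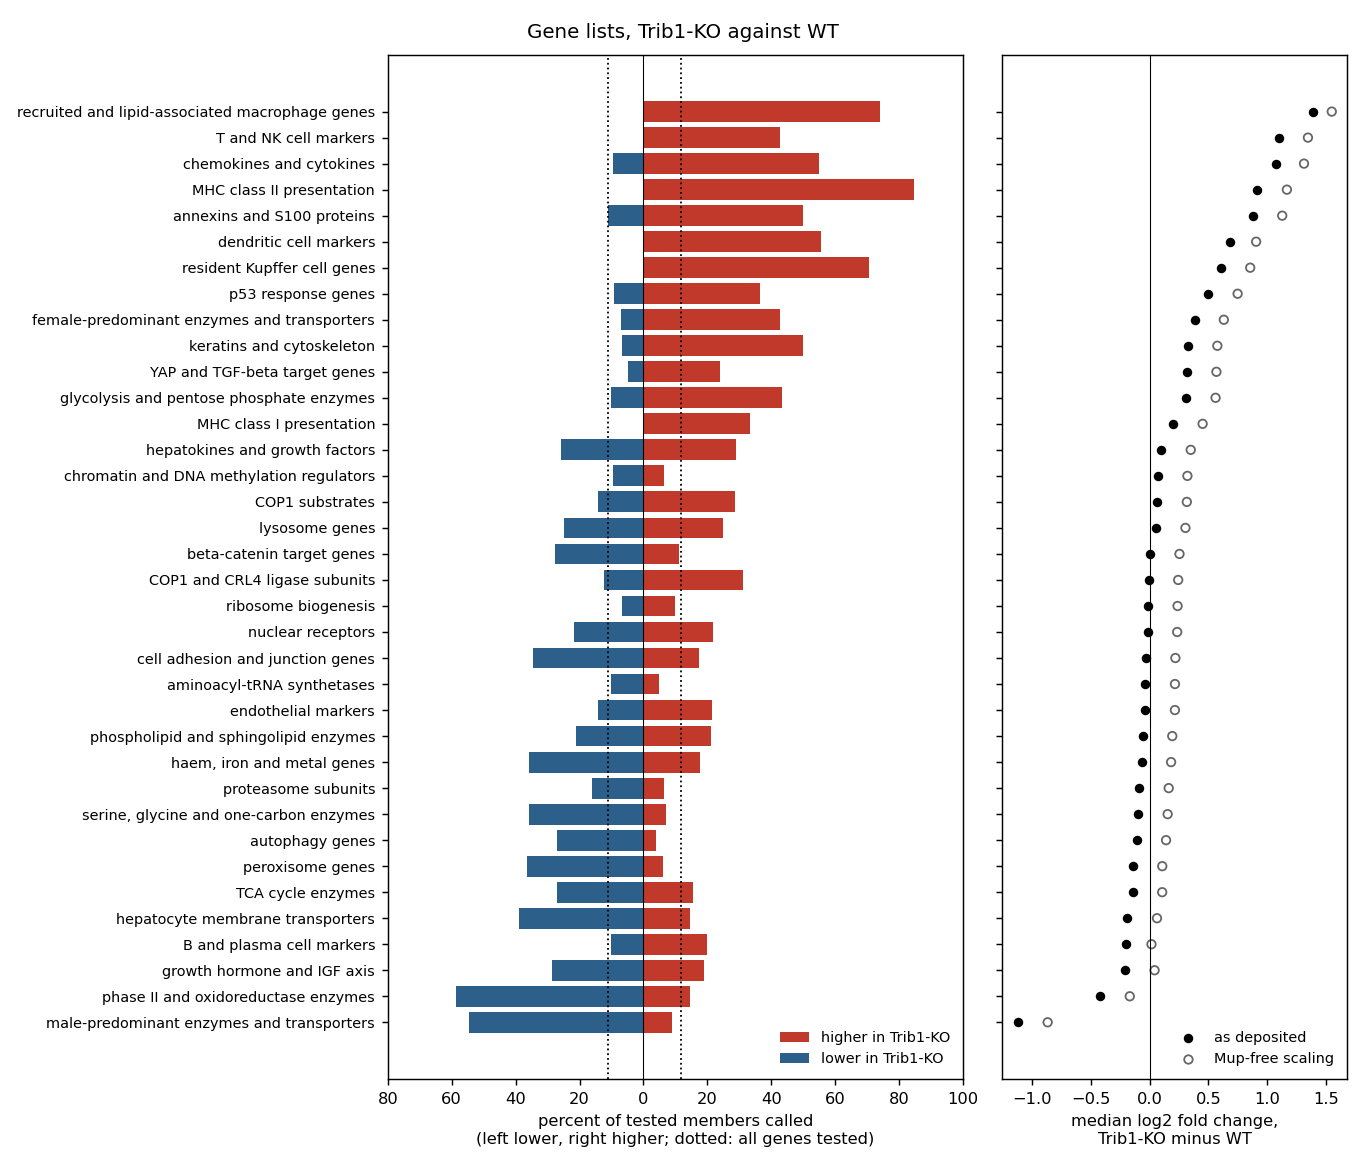
Left, the percent of each list's tested members that rose (right of 0) or fell (left of 0) in the libraries labelled Trib1-KO, with dotted lines at 11.8% and 10.9% for all genes tested. Right, the median log2 fold change of each list, Trib1-KO minus WT, in the deposited scaling (filled) and by Mup-free scaling (open). MHC class II presentation and macrophage genes rose in the largest shares, and phase II enzymes and male-predominant enzymes fell in the largest shares.

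Genes of macrophages that enter injured or fatty liver rose in 17 of 23 cases and fell in none, with a median of 1.39 on the log2 scale against 0.01 over all genes. Mmp12, the elastase of macrophages, stood at 556, 994 and 1063 in the libraries labelled Trib1-KO, against 10.7, 14.4 and 36.7 in WT libraries (5.73 ± 0.29, adjusted p = 2.0e-13). Chil1, a chitinase-like protein, stood at 143, 210.3 and 235 in the libraries labelled Trib1-KO, against 0, 3.22 and 13.9 in WT libraries. The collagenase gene Mmp13 stood at 51.0, 106 and 162 in the libraries labelled Trib1-KO, against 0, 3.80 and 8.51 in WT libraries, and Cd63, a tetraspanin of late endosomes, rose by 2.56 ± 0.23. In each of these 4 genes the groups did not overlap. Arg1, which hepatocytes also express for the urea cycle, was the most abundant member that did not pass (-0.03 ± 0.14, adjusted p = 0.92). Resident Kupffer cell genes rose in 12 of 17 cases and fell in none, by smaller amounts, with a median of 0.60. Cd5l, a secreted macrophage protein, stood at 3597, 3968 and 4674 in the libraries labelled Trib1-KO, against 1595, 1919 and 2938 in WT libraries (1.00 ± 0.15, adjusted p = 1.1e-05). The 3 chains of complement C1q, made by macrophages in liver, rose by 0.80 (C1qb), 0.75 (C1qc) and 0.68 (C1qa). The iron exporter gene Slc40a1 did not pass (-0.02 ± 0.17).

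In whole tissue, more cells of a type and more RNA per cell cannot be told apart, and marker sums are given beside these lists for that reason. The summed values of 10 markers of recruited monocytes and macrophages ran from 2591 to 3970 in the libraries labelled Trib1-KO, against 493 to 944 in WT libraries, and 9 of the 10 rose. For 6 Kupffer cell markers the sums ran from 7984 to 11217 in the libraries labelled Trib1-KO, against 4589 to 8219 in WT libraries, and 4 rose. Sums of 6 hepatocyte markers ran from 656450 to 796785 in the libraries labelled Trib1-KO, against 1563905 to 2387214 in WT libraries, with 3 lower and none higher, so that the markers of the labelled tissue were abundant in every library. A large part of these sums was Alb, at 290593 to 428238 and 1080000 to 1810000 in the same order. The median log2 fold change of the 6 markers was -0.32, and Hnf4a among them did not pass. Cholangiocyte markers lay at 795 to 963 in the libraries labelled Trib1-KO, against 1085 to 1484 in WT libraries, with 2 of 6 lower. Endothelial, stellate, mesothelial, dendritic, neutrophil, lymphocyte and erythroid sums overlapped between the groups. Muscle markers summed to at most 6.73 in any of the 12 libraries, with Mb at 0 in all. The part of these cells in the changes of other genes was not tested.

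Chemokine and cytokine genes rose in 17 of 31 cases and fell in 3, with a median of 1.07. Ccl2, the main attractant of monocytes, stood at 66.4, 94.0 and 159 in the libraries labelled Trib1-KO, against 1.05, 6.29 and 12.4 in WT libraries (4.04 ± 0.38, adjusted p = 1.3e-08). Its relative Ccl7 stood at 17.3, 30.9 and 46.0 in the libraries labelled Trib1-KO, against 0, 0.965 and 2.27 in WT libraries. Ccl6 rose by 1.48 ± 0.15 and Cxcl14 by 1.99 ± 0.22, each with groups that did not overlap. Cxcl12, which sinusoidal and stromal cells make, was the most abundant member that did not pass (-0.19 ± 0.08) and was called without library D2 (adjusted p = 0.036).

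Antigen presentation by MHC class II rose in 11 of 13 genes and fell in none, with a median of 0.92. The class II chain gene H2-Aa stood at 1286, 1614 and 2397 in the libraries labelled Trib1-KO, against 522, 875 and 1119.8 in WT libraries, without overlap. The costimulatory ligand genes Cd86 and Cd80 rose by 1.29 ± 0.18 and 1.93 ± 0.37, and the protease gene Ctss by 0.91 ± 0.13. MHC class I genes rose in 7 of 21 cases and fell in none (13 and 0 by Mup-free scaling). The non-classical genes H2-Q7 and H2-Q6, which are close copies, rose by 1.06 ± 0.16 and 0.99 ± 0.11, while the shared light chain gene B2m did not pass in the deposited scaling (0.08 ± 0.07, adjusted p = 0.47) and was called higher by Mup-free scaling (0.33, adjusted p = 0.00072) and under quantile normalization (0.38, adjusted p = 5.6e-05). T and NK cell markers rose in 6 of 14 cases at low levels. Of the 14, 0 had groups that did not overlap, beside 12% of all genes tested, so the 0 says little particular of them. The granzyme gene Gzma, for example, stood at 7.97, 16.6 and 35.5 in the libraries labelled Trib1-KO, against 0.932, 5.76 and 9.80 in WT libraries. Dendritic cell markers rose in 5 of 9 cases, among them the cytokine receptor gene Flt3 (1.26 ± 0.31) and the transcription factor gene Zbtb46 (0.42 ± 0.11). Of 10 B and plasma cell markers 2 rose and 1 fell (2 and 0 by Mup-free scaling, with the median at 0.02 in place of -0.21): the joining chain gene Jchain rose by 1.41 ± 0.24 and the kappa constant gene Igkc by 1.38 ± 0.27, while the IgM heavy chain gene Ighm was at -0.94 ± 0.26 (adjusted p = 0.0088). Of 14 endothelial markers 3 were higher and 2 lower (7 and 0 by Mup-free scaling, with the median at 0.22 in place of -0.04). Lyve1, a receptor of sinusoidal endothelium, rose by 0.79 ± 0.25 with overlapping groups, a call that was lost without library C1, A1, A3 or B2 (adjusted p of 0.053 to 0.060). Kdr, a receptor for vascular growth factor, was at -0.30 ± 0.09.

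Enzymes and transporters that are more abundant in female mouse liver rose in 12 of 28 cases and fell in 2. The list was drawn up with the largest rises of these data known, so its direction is a description. Besides the genes above, Sult3a2 stood at 12.9, 28.6 and 87.0 in the libraries labelled Trib1-KO and was listed at 0 in all WT libraries. Fmo2, a flavin monooxygenase, was the most abundant member that did not pass (0.41 ± 0.36). Of those more abundant in males, 2 of 22 rose and 12 fell, with a median of -1.12. Mup20, which fell, is in this list. Several other genes of the Mup family, which also differs between the sexes, rose as given above. The counts therefore do not stand for all sex-differing genes. Nox4, an oxidase that makes hydrogen peroxide, stood at 179.5, 209 and 229 in the libraries labelled Trib1-KO, against 819, 1073 and 1169.7 in WT libraries (-2.32 ± 0.11, adjusted p = 4.6e-14). Cyp2d9, a testosterone hydroxylase, was at -1.08 ± 0.09. Serpina1e, an antitrypsin gene, had groups that did not overlap yet did not pass in the fit over all 4 groups (-1.33 ± 0.50, adjusted p = 0.058). It was called in the fit of these 12 libraries alone (adjusted p = 3.4e-05) and with the library number as a term (adjusted p = 0.047).

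In the list of the growth hormone and IGF axis, 4 of 21 genes were higher and 6 lower. Ghr, the growth hormone receptor, stood at 5693, 6767 and 7539 in the libraries labelled Trib1-KO, against 7965, 10146 and 10881 in WT libraries, without overlap (-0.54 ± 0.08, adjusted p = 8.2e-06). Lifr, the receptor of leukaemia inhibitory factor, stood at 2793, 3082 and 4829 in the libraries labelled Trib1-KO, against 6543, 7842 and 9118 in WT libraries, also without overlap (-1.23 ± 0.17). Igfbp2, a binding protein for IGFs, was at -1.24 ± 0.18, and Igf1, the hormone that growth hormone induces in liver, at -0.46 ± 0.08 with overlapping ranges. Egfr, the receptor of epidermal growth factor, did not pass (-0.51 ± 0.20, adjusted p = 0.065) and was called without library D2 or A2 (adjusted p of 0.035 and 0.047). The list's median was -0.21 and turned to 0.04 by Mup-free scaling, under which 6 were higher and 5 lower.

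Nuclear receptors split evenly, with 8 of 37 higher and 8 lower (13 and 4 by Mup-free scaling). Nr1i3, the xenobiotic sensor CAR, stood at 1752, 2073 and 2397 in the libraries labelled Trib1-KO, against 4352, 5489.8 and 6469.7 in WT libraries (-1.39 ± 0.15, adjusted p = 1.5e-07). The clock repressor gene Nr1d1 was at -0.68 ± 0.12, while the orphan receptor gene Rora rose by 0.59 ± 0.10 and the retinoic acid receptor gene Rarb by 1.19 ± 0.20. None of the 4 had overlapping groups. Hnf4a, a master regulator of the hepatocyte, stood at 13577, 15779 and 16179.9 in the libraries labelled Trib1-KO, against 13009, 15180.0 and 18697 in WT libraries, and did not pass (-0.02 ± 0.09, adjusted p = 0.93).

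Among phase II and oxidoreductase enzymes 24 of 41 fell and 6 rose, with a median of -0.42 that kept its sign by Mup-free scaling (-0.17, 16 lower and 8 higher). The glucuronosyltransferase gene Ugt2b36 stood at 7811, 8606 and 9266 in the libraries labelled Trib1-KO, against 13436, 14106 and 15878 in WT libraries (-0.75 ± 0.07, adjusted p = 8.5e-09). Adh4, an alcohol dehydrogenase, was at -1.78 ± 0.22, and the glutathione transferase genes Gstm6 and Gsta3 were at -0.95 ± 0.09 and -0.84 ± 0.11. Aldh1a1, which makes retinoic acid, did not pass (0.03 ± 0.15). Hepatocyte membrane transporters fell in 16 of 41 cases and rose in 6, and by Mup-free scaling in 9 and 14 cases. Slc22a7, an organic anion transporter, stood at 9.02, 19.9 and 61.5 in the libraries labelled Trib1-KO, against 88.1, 373 and 685 in WT libraries (-3.66 ± 0.42, adjusted p = 3.0e-07). Slc1a2, a glutamate transporter, was at -1.32 ± 0.13. In the other direction, Slc22a3, an organic cation transporter, stood at 283, 309 and 348 in the libraries labelled Trib1-KO, against 29.0, 42.5 and 109.6 in WT libraries, and Slc1a4, a neutral amino acid transporter, rose by 2.29 ± 0.22. Abcc2, the canalicular export pump, did not pass in the deposited scaling (-0.03 ± 0.09, adjusted p = 0.86) and was called higher by Mup-free scaling (0.22, adjusted p = 0.045).

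Hepatokines and growth factors, the proteins by which liver signals to other organs, rose in 9 of 31 cases and fell in 8, and by Mup-free scaling in 14 and 4. Fgf1 stood at 364, 568 and 887 in the libraries labelled Trib1-KO, against 2010.5, 2412 and 2689 in WT libraries (-2.08 ± 0.17, adjusted p = 1.2e-09). Fetub, which encodes the protease inhibitor fetuin-B, was at -0.78 ± 0.08, and Inhbc, an inhibin subunit, at -0.73 ± 0.10, each without overlap.

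Genes of the branch of sugar metabolism that yields NADPH were among those that rose. Of 30 glycolysis and pentose phosphate genes 13 rose and 3 fell, with a median of 0.31 (21 and 2 by Mup-free scaling, with a median of 0.56). G6pdx, the entry enzyme of the pentose phosphate pathway, stood at 239, 543 and 738 in the libraries labelled Trib1-KO, against 92.4, 128 and 201 in WT libraries (1.87 ± 0.25, adjusted p = 2.9e-06). Pgd, its next dehydrogenase, stood at 1419, 1984 and 2528 in the libraries labelled Trib1-KO, against 697, 856 and 908 in WT libraries, and Taldo1, transaldolase, rose by 0.56 ± 0.07. Hk2, a hexokinase that is low in normal hepatocytes, stood at 167, 247 and 449 in the libraries labelled Trib1-KO, against 21.8, 44.0 and 66.3 in WT libraries (2.62 ± 0.32). The lactate dehydrogenase gene Ldha did not pass in the deposited scaling (0.17 ± 0.09) and was called higher by Mup-free scaling (0.42, adjusted p = 0.00059) and under quantile normalization (0.38, adjusted p = 0.0024). Of 26 genes in the list of the TCA cycle and its side enzymes, 4 rose and 7 fell, and by Mup-free scaling 10 and 2. The malic enzyme gene Me1, another source of NADPH, stood at 8383, 12419.9 and 21755 in the libraries labelled Trib1-KO, against 2761, 5489.6 and 6360.2 in WT libraries (1.40 ± 0.24). The citrate synthase gene Cs rose by 0.44 ± 0.07, while Aco1 and Mdh1, both cytosolic, were at -0.45 ± 0.06 and -0.45 ± 0.08.

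Peroxisome genes fell in 12 of 33 cases and rose in 2, and by Mup-free scaling fell in 6 and rose in 8. Amacr, the racemase of branched fatty acids, stood at 1421, 1570.0 and 1677 in the libraries labelled Trib1-KO, against 2508, 3013 and 3538 in WT libraries (-0.96 ± 0.07, adjusted p = 3.8e-10). The phytanic acid hydroxylase gene Phyh was at -0.80 ± 0.07 and the urate oxidase gene Uox at -0.81 ± 0.09. The groups did not overlap in any of these 3 genes, and all 3 were still lower by Mup-free scaling, at -0.71, -0.55 and -0.56. Enzymes of serine, glycine and one-carbon metabolism fell in 10 of 28 cases and rose in 2, and by Mup-free scaling in 7 and 6. Those that fell with the smallest adjusted p lie in methionine and glycine turnover, namely Sardh (-1.11 ± 0.08), Ahcy (-0.93 ± 0.08), Gnmt (-1.11 ± 0.10) and Aldh1l1 (-0.99 ± 0.12). Gnmt stood at 11795, 14104 and 16033 in the libraries labelled Trib1-KO, against 24848, 30579 and 36274 in WT libraries, whereas Mat1a, which makes S-adenosylmethionine, did not pass in the deposited scaling (0.29 ± 0.21; 0.55 and called by Mup-free scaling, adjusted p = 0.031). Haem, iron and metal genes fell in 10 of 28 cases and rose in 5, and by Mup-free scaling in 5 and 7. Fech, the enzyme that inserts iron into haem, had the narrowest groups, at 2913, 2944 and 3145 in the libraries labelled Trib1-KO, against 4315, 4477 and 4652 in WT libraries (-0.59 ± 0.05, adjusted p = 6.7e-10). Cpox, an earlier enzyme of haem synthesis, was at -0.55 ± 0.07, and the iron-regulating genes Tfr2 and Tmprss6 were at -0.66 ± 0.11 and -0.43 ± 0.07. Hamp, which encodes the hormone hepcidin, did not pass (0.08 ± 0.16).

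Of 30 keratin and cytoskeleton genes 15 rose and 2 fell, with a median of 0.32. The tubulin gene Tubb2a stood at 6154, 7241 and 8473 in the libraries labelled Trib1-KO, against 1027, 1517 and 2268 in WT libraries (2.23 ± 0.20, adjusted p = 4.9e-09). Tubb6, another beta-tubulin, rose by 1.50 ± 0.17, the tropomyosin gene Tpm4 by 0.94 ± 0.08 and the actin gene Actg1 by 0.89 ± 0.09, while the hepatocyte keratin gene Krt8 did not pass (-0.09 ± 0.11). Annexins and S100 proteins, which bind calcium, rose in 9 of 18 cases and fell in 2. Anxa2 stood at 1399, 1669 and 1999.8 in the libraries labelled Trib1-KO, against 239.7, 266 and 304 in WT libraries (2.63 ± 0.10, adjusted p = 2.2e-15). Anxa5 rose by 1.62 ± 0.10 and S100a11 by 2.31 ± 0.15. S100g, the calbindin of gut, stood at 27.7, 42.2 and 60.6 in the libraries labelled Trib1-KO and at no more than 0.878 in WT libraries. Adhesion and junction genes fell in 10 of 29 cases and rose in 5, and by Mup-free scaling in 4 and 10. Ocln, a tight junction protein, was at -1.15 ± 0.14 and Gjb1, the main gap junction protein of hepatocytes, at -0.39 ± 0.06. Vcam1, which tethers leukocytes, rose by 1.63 ± 0.22 and Cd44, a hyaluronan receptor, by 1.25 ± 0.15. The recruited macrophage marker sums above were higher in the same group. The genes were not compared with those sums across libraries, and the part of macrophages was not tested.

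Stress and signalling lists gave mixed results. Response genes of p53 rose in 8 of 22 cases and fell in 2 (15 and 0 by Mup-free scaling). The apoptosis genes Pmaip1 and Tnfrsf10b rose by 1.86 ± 0.32 and 2.19 ± 0.44, Zmat3, which encodes an RNA-binding protein, by 0.69 ± 0.13, and Ddit4, an inhibitor of mTOR signalling, by 1.43 ± 0.34 with overlapping groups. YAP and TGF-beta targets rose in 5 of 21 cases and fell in 1 (8 and 1 by Mup-free scaling), with Axl, a receptor that macrophages also carry, at 1.21 ± 0.19. Targets of beta-catenin fell in 5 of 18 cases and rose in 2, and by Mup-free scaling in 3 and 6. Rgn, which encodes regucalcin, was at -1.17 ± 0.12 and the caffeine-metabolising P450 gene Cyp1a2 at -0.59 ± 0.11, while the transcription factor gene Tcf7 rose by 0.65 ± 0.14. Oat, a further gene of pericentral hepatocytes, did not pass (0.15 ± 0.21).

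Genes of the ligases that TRIB1 works with, of its relatives and of COP1 substrates were read next. Of 16 genes of the COP1 and CRL4 ligases and the Tribbles family 5 rose and 2 fell (10 and 0 by Mup-free scaling, with the median at 0.24 in place of -0.01). Besides Trib1, the adaptor gene Det1 rose by 0.42 ± 0.12 (not called under quantile normalization, adjusted p = 0.062) and the Tribbles gene Trib3 by 0.64 ± 0.18, both with overlapping groups. The scaffold gene Cul4b was at -0.39 ± 0.07, and its relative Cul4a did not pass (-0.16 ± 0.10). Of 14 genes whose proteins are known COP1 substrates 4 rose and 2 fell. Acaca, the acetyl-CoA carboxylase that commits carbon to fatty acid synthesis, stood at 3352, 4386 and 9122 in the libraries labelled Trib1-KO, against 1751, 2470.1 and 2749 in WT libraries (1.04 ± 0.17, adjusted p = 5.8e-05). The transcription factor gene Ets2 rose by 0.94 ± 0.18, whereas Cebpa and the CREB coactivator gene Crtc2 (-0.54 ± 0.07) fell. Pnpla2, which encodes the triglyceride lipase ATGL, did not pass in the deposited scaling (0.22 ± 0.13) and was called higher by Mup-free scaling (0.47, adjusted p = 0.0052). RNA levels say nothing of protein levels, which is the level at which TRIB1 is known to act.

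Among lists of general cell machinery, the first 4 given here were called in shares near or below the 22.7% over all genes. The autophagy, lysosome and phospholipid lists that follow them were called in larger shares. Of 30 ribosome biogenesis genes 3 rose and 2 fell, of 20 aminoacyl-tRNA synthetases 1 rose and 2 fell, of 31 chromatin and DNA methylation regulators 2 rose and 3 fell, and of 31 proteasome subunits 2 rose and 5 fell. By Mup-free scaling the 4 lists had 12, 8, 13 and 13 genes higher and 1, 0, 0 and 0 lower. The proteasome lid gene Psmd8 rose by 0.60 ± 0.06, while the ATPase gene Psmc5 was at -0.22 ± 0.06 and turned to 0.03 by Mup-free scaling. Autophagy genes fell in 7 of 26 cases and rose in 1, and by Mup-free scaling in 0 and 8. Gabarapl1, a coat protein of the autophagosome, was at -0.59 ± 0.13 with groups apart, and Wipi1, a lipid-binding protein of the same pathway, rose by 0.60 ± 0.10. Lysosome genes rose in 8 of 32 cases and fell in 8 (16 and 3 by Mup-free scaling), with the protease genes Ctsd at 0.54 ± 0.06 and Ctsh at -0.52 ± 0.07, both with groups apart. Phospholipid and sphingolipid enzymes rose in 8 of 38 cases and fell in 8 (12 and 2 by Mup-free scaling). Sptlc2, a subunit of the first enzyme of sphingolipid synthesis, rose by 0.88 ± 0.14, and Lpcat3, which remodels phosphatidylcholine, was at -0.39 ± 0.07.

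Genes on chromosome 15 were also read by their distance from Trib1. Within 5 Mb of the Trib1 start, 46 other genes were tested, of which 16 rose and 6 fell (47.8%, against 26.8% of the 680 genes on the rest of chromosome 15 and 22.7% of all genes). Within 1 Mb, 3 of 14 rose and 3 fell, and within 10 Mb 24 of 74 rose and 6 fell. Neighbouring genes are not independent of each other, and no test was made of this share. Gm19510, a long intergenic RNA that begins 140.1 kb downstream of Trib1, stood at 30.6, 42.8 and 64.6 in the libraries labelled Trib1-KO, against 0, 0 and 1.14 in WT libraries (5.18 ± 0.26, adjusted p = 3.1e-13). Fam83a, which encodes a signalling protein, begins 1662.9 kb upstream and stood at 222, 397 and 565 in the libraries labelled Trib1-KO, against 2.50, 11.3 and 34.9 in WT libraries (4.82 ± 0.46). On the other side, Fam84b and A1bg begin 1170.6 and 1248.5 kb downstream and rose by 2.19 ± 0.15 and 3.03 ± 0.43, each without overlap. The growth regulator gene Myc, 2337 kb downstream, stood at 267, 319 and 477 in the libraries labelled Trib1-KO, against 79.5, 142 and 185 in WT libraries (1.35 ± 0.40, adjusted p = 0.017).

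Smaller shifts made up the rest of the neighbourhood. Washc5, 316.4 kb upstream, rose by 0.42 ± 0.07, Derl1, an endoplasmic reticulum protein, by 0.47 ± 0.06 and Enpp2, which encodes autotaxin, by 0.49 ± 0.08. Also higher were Tbc1d31 (0.77 ± 0.14), 9130401M01Rik (0.61 ± 0.11), Atad2 (0.59 ± 0.12), Fbxo32 (0.40 ± 0.12), Trmt12 (0.42 ± 0.14), Fam49b (0.60 ± 0.14), Col14a1 (0.44 ± 0.12) and Gm46516 (0.99 ± 0.32). Some of these small shifts rested on single libraries. The call of Fbxo32 was lost without A1 (adjusted p = 0.053), that of Gm46516 without A2, B1 or D3 (0.057 to 0.064), and that of Trmt12 without A1, A3, B1 or any library labelled Trib1-KO other than C3 (0.052 to 0.11). The 6 genes that fell were Zhx2, a repressor of fetal liver genes (-1.25 ± 0.28), Sqle, an enzyme of sterol synthesis (-1.10 ± 0.31), the respiratory chain gene Ndufb9 (-0.42 ± 0.06), Rnf139 (-0.33 ± 0.09), Deptor (-0.28 ± 0.07) and Fam91a1 (-0.16 ± 0.06), of which Fam91a1 turned to 0.09 by Mup-free scaling and was not called without A1, A2, A3, B2, C1, C2, C3, D2 or D3 (adjusted p of 0.054 to 0.098). Zhx2 stood at 282, 308 and 348 in the libraries labelled Trib1-KO, against 276, 1111 and 1247 in WT libraries, where it was uneven, and the groups overlapped. In DKO against Cebpa-KO libraries, of which the DKO mice carry floxed Trib1 and the Cebpa-KO mice do not, 0 of the 46 neighbours were called by limma (unadjusted p under 0.05 for 5 of them), where 0.202% of all genes were called, so that the 0 says nothing particular of these neighbours, and Gm19510 was listed at 0 in all 12 of those libraries.

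**Figure D4:**
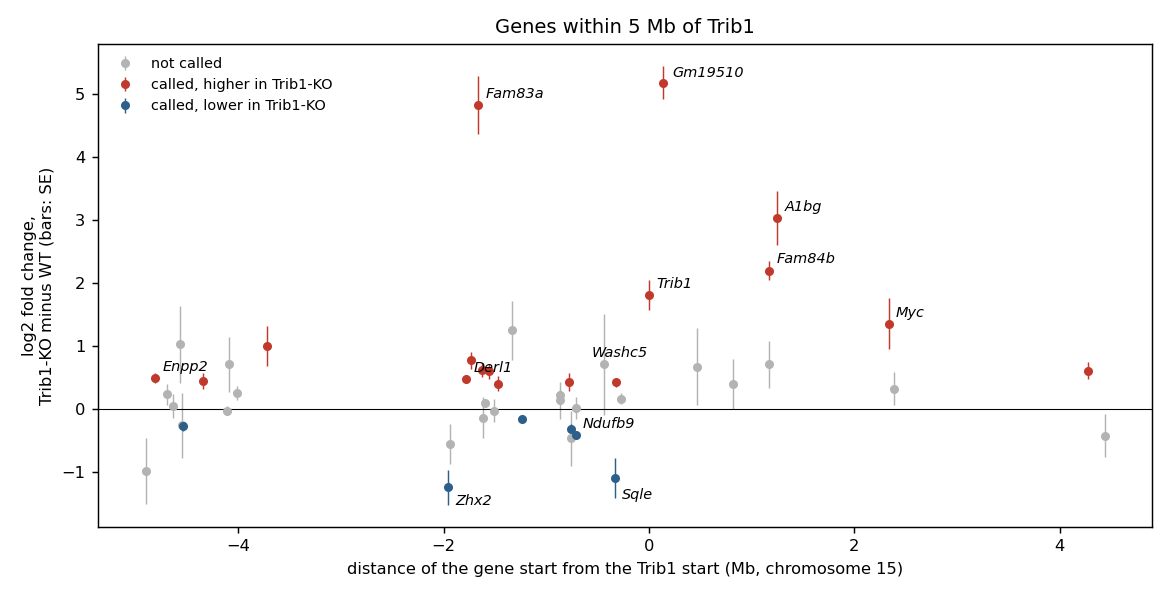
Each point is a gene tested within 5 Mb of Trib1, placed by the distance between gene starts, with the log2 fold change of the libraries labelled Trib1-KO minus WT upward and bars for its standard error. Gm19510 and Fam83a rose the most, by 5.18 and 4.82, while Zhx2 and Sqle lay lowest among the called genes, at -1.25 and -1.10.

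The same allele was then read where Cebpa was floxed too, by setting DKO against Cebpa-KO libraries, which share no library with the comparison above. There 16 genes were higher and 24 lower, 0.202% of the genes tested, while 1878 had an unadjusted p under 0.05. Of the 4498 genes called in the first comparison, 22 were called between DKO and Cebpa-KO libraries, 13 of them in the same direction. The genes that rose had a median log2 fold change of 0.98 in the libraries labelled Trib1-KO against WT and 0.02 in DKO against Cebpa-KO libraries. For the genes that fell the medians were -0.58 and -0.02. The difference of the 2 effects, tested as an interaction, was called for 2490 genes (12.6%), among them 2277 of the 4498. Since the 4498 were chosen on the first effect, their smaller second effect is in part fixed by that choice, and the interaction share among them is a description.

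For Trib1 the second comparison went the same way. It stood at 732 ± 259 normalized counts in DKO libraries and 333 ± 158 in Cebpa-KO libraries (SD, n = 6 each), a log2 fold change of 1.13 ± 0.24 (adjusted p = 0.046), and its interaction did not pass (0.67 ± 0.34, adjusted p = 0.23). Scd1 went the opposite way. It stood at 86232 ± 22663 in DKO libraries and 189038 ± 59411 in Cebpa-KO libraries (-1.12 ± 0.21, adjusted p = 0.017), and its interaction was 2.14 ± 0.30. Genes named here after their values were seen, because they were called in both comparisons in the same direction, include the amino acid transporter gene Slc1a5 (1.29 in the libraries labelled Trib1-KO against WT and 1.27 in DKO against Cebpa-KO libraries), the thymidine phosphorylase gene Tymp (0.94 and 1.09), the acyl-CoA synthetase gene Acsm2 (1.72 and 3.27) and the calcium-binding protein gene Cib3 (-2.52 and -2.58).

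The 12 genes with the largest interactions were then read in both Cebpa-floxed groups. Among the 6 largest on the higher side, Sult3a1, Gldn and Sprr1a averaged under 1 normalized count in DKO and in Cebpa-KO libraries, so no fold is given there. Moxd1 was listed at 0 in DKO libraries and averaged 4.05 ± 9.45 in Cebpa-KO libraries, against 5004 ± 1451 in the libraries labelled Trib1-KO (SD, n = 6 each). Cyp2b9 averaged 17.1 ± 24.7 in DKO and 17.1 ± 20.9 in Cebpa-KO libraries, and Mup18 averaged 46.4 ± 55.0 and 340.1 ± 407 in the same order. On the lower side, Selenbp2 stood at 51376 ± 22302 in DKO and 50255 ± 13254 in Cebpa-KO libraries, while the libraries labelled Trib1-KO averaged 94.4 ± 36.0 and WT libraries 19870.0 ± 7933. Clec2h, Enho, Obp2a, Tff3 and Dnaic1 were also present in both Cebpa-floxed groups, with DKO averages of 1124, 1026, 434, 56.0 and 126. None of these 12 genes was called between DKO and Cebpa-KO libraries, and Mup18 had the largest fold there, at -3.78 ± 0.99 (adjusted p = 0.14).

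**Figure D5:**
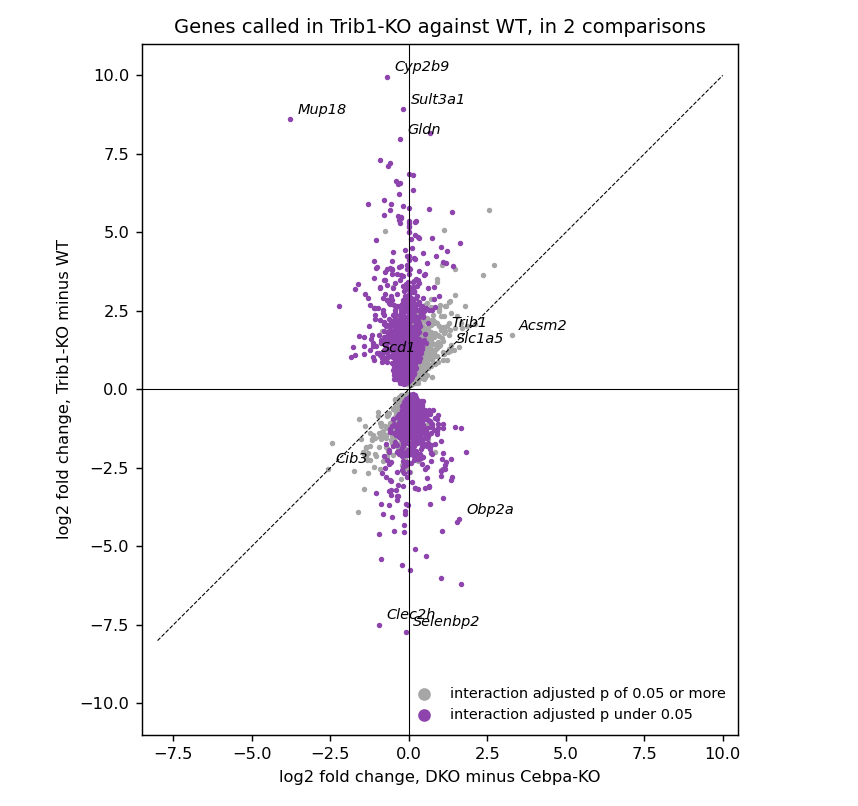
Each point is 1 of the 4498 genes called in the first comparison, with its log2 fold change of DKO minus Cebpa-KO libraries across and of the libraries labelled Trib1-KO minus WT upward. Points on the dashed line would have equal effects. Most points lie near 0 across, and the 2277 with an interaction adjusted p under 0.05 are coloured.

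Between DKO and Cebpa-KO libraries, 10 of the 894 list memberships were called by limma, where 0.202% of all genes tested were, and 29 of the 36 lists had 0 members called. The recruited macrophage list had a median of 1.39 in the libraries labelled Trib1-KO against WT and 0.07 in DKO against Cebpa-KO libraries, with 12 of its 23 genes called in the interaction, beside 12.6% of all genes tested. The chemokine list had medians of 1.07 and -0.04, with 16 of 31 in the interaction, and the male-predominant list -1.12 and 0.27, with 16 of 22. Phase II enzymes had 20 of 41 members in the interaction and MHC class II genes 10 of 13. The interaction contains the first effect, and 50.6% of all 4498 called genes were called in it. Many list members were called in the first comparison, and the lists were drawn up with earlier results known. These list counts are therefore descriptions.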

How the data were processed

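RNA from 24 mouse livers was sequenced with a stranded poly(A) mRNA kit, per the labels' protocols. The authors deposited 1 table of signal values, that is, estimated counts for 54432 gene rows divided by a factor for each library. Salmon, DESeq2 and the build GRCm38.p6 are named, without versions of the tools, per the submitters' processing notes. The deposited values are not counts: only 60.7 to 66.2% of the values below 20 steps lay within 0.02 of a whole multiple of the step, which is the commonest low value of a library. A count test was therefore not used. From those steps the 12 libraries of the comparison held about 18640366 to 31695247 estimated reads, which bounds the precision of genes near 1.

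Differences were fitted with limma 3.58.1 (R 4.3.3) with its intensity trend, as 4 group means over all 24 libraries. The fit used log2 of each value after 1 was added, for 19810 genes whose mean reached 1. P-values were adjusted by Benjamini-Hochberg over all of them, and genes under 0.05 were called. A fold change on this scale understates that of low genes. DKO minus Cebpa-KO and the interaction came from the same fit. The Mup share was compared by an exact permutation test. Tables were joined with Python 3.11.15, numpy 2.4.6, pandas 2.3.3 and scipy 1.17.1.

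Symbols were matched to GENCODE M21 for 54050 of the rows (99.3%), and where a symbol had several rows the most abundant was used. Column names give a group, a letter and a number from 1 to 3, so a column was tied to its group but not to a mouse or a cohort, and cohort was not used. The number was used as a term in an alternative.

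Named genes were Trib1 and Cebpa, the 14 largest log2 fold changes in each direction among called genes with a mean of at least 10 and no overlap between groups, and the 8 largest differences of means in each direction at 2-fold or more. To these were added up to 4 called members and the most abundant uncalled member of each list, called genes within 5 Mb of Trib1, and the 6 largest interactions in each direction. Predicted and clone symbols were left out of the largest changes. Some genes that the rule names are not reported here. The members, lists and this rule were chosen with earlier results of these data known. The fit was tested on simulated data in which 200 genes were changed: at log2 changes of 1, -1, 2 and -2 it recovered 43, 40, 47 and 50 of 50 genes each, with 6 false calls. The changed genes were drawn from those with a mean of at least 50, so recovery of lower genes was not examined. Far fewer genes were changed than were called in the data, and no shift like that of the Mup genes was simulated. Alternatives covered the pseudocount, the filter, 2 scalings, library weights, the number term, a fit of 12 libraries only, and each library left out in turn.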

Additional observations from a re-analysis of the deposited data

Results flagged for a closer look

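In 9 of 90 groups of 6 libraries examined, the highest or the lowest library lay apart from the other 5 by Dixon's test at 95%. The test was made on log2 of the value plus 1, while the values below are normalized counts. Chance would give about 1 in 20 for independent groups with a normal spread. Genes of 1 family in 1 library are not independent, and groups listed at 0 but for 1 library are not normal. Among the libraries labelled Trib1-KO, Moxd1 was at 7893 normalized counts in D2, against 4038 to 4971 in the other 5. Ugt2b38 was at 26.3 in the same library, against 7.71 to 8.76 in the others. Clec2h was at 1.28 in D1 and Dnaic1 at 0.221 in C1, and both were listed at 0 in the other 5 libraries, so these are values of about 1 read or less.

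The remaining 5 cases were all WT library B3. It held 501 normalized counts of Tff3, against 13.8 to 27.6 in the other WT libraries. Its values for Mup genes were low: 871 for Mup19 (others 47173 to 140816), 188 for Mup15 (25545 to 74957), 33261 for Mup14 (93937 to 163869) and 11044 for Mup16 (30811 to 54867). Without B3, 2362 genes were called higher and 2157 lower, the highest counts of all fits that left out 1 library. The Mup difference was then 16.5 percentage points, the lowest with 1 library left out.

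The change of the libraries labelled Trib1-KO relative to WT differed from that of DKO relative to Cebpa-KO libraries for 2277 of the 4498 called genes, by limma's interaction test. The interaction is the first log2 fold change minus the second. On the lower side it was -7.61 for Selenbp2, -6.56 for Clec2h, -5.87 for Enho, -5.77 for Dnaic1, -5.73 for Obp2a and -5.56 for Tff3. On the higher side it was 12.38 for Mup18, 10.64 for Cyp2b9, 9.09 for Sult3a1, 8.24 for Gldn, 8.22 for Moxd1 and 7.79 for Sprr1a. Several of these genes were at or near 0 in at least 1 group, where the size of the value depends on the pseudocount.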

How the results depend on the processing

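Mup-free scaling moved the counts most, to 5291 higher and 968 lower genes in the libraries labelled Trib1-KO against WT (2330 and 2168 as deposited), so that 84.5% of calls were higher in place of 51.8%. All 2330 genes called higher as deposited were also called higher by it. The interaction counts became 2959 and 618, against 1233 and 1257. Under the other alternatives both pairs of counts stayed within 1.5 times, and leaving out single libraries gave 2106 to 2362 higher and 1978 to 2157 lower genes and a Mup difference of 16.5 to 18.0 percentage points. Between DKO and Cebpa-KO libraries, the 16 higher genes became 8 with every gene above 0 tested, 34 with the library number as a term and 25 with library weights. Of 4950 values of named genes under alternatives, 4833 kept direction and call, 91 lost the call, 22 gained it and 4 changed sign, all 4 by Mup-free scaling: Abcc2 at 0.22, Psmc5 at 0.029, Dars at 0.040 and Fam91a1 at 0.094. Of 36 list medians, 16 changed sign by Mup-free scaling and 2 by quantile normalization; the causes were not tested. With the numbers 1 to 3 of the library names as a term, 2378 genes were higher and 2233 lower. No label says what the number marks. Deviations from the group means correlated at a mean r of 0.02 between same-numbered libraries of the 2 groups (12 pairs, -0.003 to 0.08) and -0.01 between others. The second principal component of the 12 libraries, with 9.4% of their variance, did follow the number in part. In both groups, libraries numbered 1 had positive values on it (16.7 to 28.7) and those numbered 3 negative values (-50.6 to -26.9). Those numbered 2 ran from -10.8 to 48.6. The source of this pattern was not tested. No paired analysis was possible because each number stands for 2 libraries in a group and no label ties libraries to each other. Reads near 1 per library limit the lowest genes, cohort cannot be told apart from other differences between mice, and the total of Trib1 does not check the deletion.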
